A study of Homo sapiens with 12 samples.

Results

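Transcripts of the DNA replication licensing genes MCM2, MCM3, MCM4, MCM5, MCM6, MCM7, MCM10, CDC6, CDT1 and PCNA were followed in MDA-MB-231, a human cell line established from a breast cancer that lacks hormone receptors and HER2 amplification. The genes were chosen by name and are 10 of the 18417 tested. Each had 1 array feature that names no other gene, so no choice between features was needed. The 4 groups were cells treated to resistance (TTR) and given TRAIL, TTR cells without TRAIL, parental cells given TRAIL, and parental cells without TRAIL. TRAIL, a ligand that can trigger apoptosis through death receptors, was used at 100 ng per ml for 2 hours. Each group held 3 one-colour Affymetrix arrays, 12 in all, and the number of arrays limits the precision. The labels name neither the agent nor the schedule by which TTR cells were made, nor whether they are 1 clone. An unexplained tag in the labels differs between parental and TTR arrays, and its meaning and the line cannot be told apart. The same tag holds a code, also unexplained, that same-numbered arrays of the 4 groups share (in 1 label it lacks a character). The replicate numbers are therefore read as pairs. The main tests do not use these pairs, which enter only as a block in alternative fits. Separate cultures are not stated for the replicates either, so the spread behind each p-value is that between these arrays and may be technical.

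A replication origin is licensed in G1 phase, when the origin recognition complex, CDC6 and CDT1 load the ring-shaped MCM2-7 helicase onto DNA in an inactive form. In S phase, kinases, CDC45, the GINS complex and MCM10 turn the loaded ring into a moving helicase. PCNA is the sliding clamp that holds DNA polymerases on the template, and CDT1 bound to chromatin through PCNA is degraded so that origins are not licensed again. Many of these genes are known targets of E2F transcription factors, which RB1 restrains until the G1/S transition. Since bulk RNA was measured, fewer cells expressing a gene and less RNA per cell cannot be told apart.

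The promoter windows of the 4 genes on which the results turn (MCM6 of the ring, the loaders CDC6 and CDT1, and PCNA) are shown to place the E2F-type words they hold. The windows span 250 bases before to 50 bases after the start site, on the gene's strand, and are credited to RefSeq (GRCh38.p14). Capitals mark the words TTTCCCGC, TTTCGCGC, TTTGCCGC or TTTGGCGC on either strand, and overlapping words run together. MCM6 lies at chr2:135876394-135876693 (minus strand), CDC6 at chr17:40287629-40287928 (plus strand), CDT1 at chr16:88803539-88803838 (plus strand) and PCNA at chr20:5126573-5126872 (minus strand, the first of its 2 windows).
MCM6: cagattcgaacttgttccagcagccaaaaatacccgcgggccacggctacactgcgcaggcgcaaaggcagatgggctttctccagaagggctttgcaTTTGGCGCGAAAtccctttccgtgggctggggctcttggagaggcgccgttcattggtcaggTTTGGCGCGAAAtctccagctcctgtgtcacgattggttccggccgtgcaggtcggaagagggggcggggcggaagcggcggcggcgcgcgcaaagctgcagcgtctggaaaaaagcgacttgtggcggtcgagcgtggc
CDC6: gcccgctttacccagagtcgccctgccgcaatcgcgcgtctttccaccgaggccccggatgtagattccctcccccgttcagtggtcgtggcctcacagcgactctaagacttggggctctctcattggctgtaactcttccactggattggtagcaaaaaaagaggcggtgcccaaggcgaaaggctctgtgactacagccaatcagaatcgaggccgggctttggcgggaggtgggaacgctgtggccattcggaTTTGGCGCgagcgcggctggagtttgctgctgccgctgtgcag
CDT1: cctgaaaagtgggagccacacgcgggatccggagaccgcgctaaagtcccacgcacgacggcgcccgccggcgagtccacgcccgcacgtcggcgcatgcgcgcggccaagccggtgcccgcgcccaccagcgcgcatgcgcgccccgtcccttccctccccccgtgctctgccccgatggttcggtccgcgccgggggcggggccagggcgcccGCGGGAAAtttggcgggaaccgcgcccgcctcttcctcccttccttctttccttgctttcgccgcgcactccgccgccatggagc
PCNA: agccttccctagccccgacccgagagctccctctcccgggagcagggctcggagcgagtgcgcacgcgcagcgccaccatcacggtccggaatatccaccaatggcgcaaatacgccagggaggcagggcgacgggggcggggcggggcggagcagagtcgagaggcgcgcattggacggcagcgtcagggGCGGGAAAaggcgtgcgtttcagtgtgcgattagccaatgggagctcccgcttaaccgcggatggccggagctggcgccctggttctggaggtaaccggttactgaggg

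Windows were found for 8 of the 10 genes, and 7 of those 8 held an E2F-type word in at least 1 window, MCM10 being the other. MCM4 and MCM5 had no entry. By window, 7 of 11 held a word, against 1164 of 35116 windows in the whole table (3.31%). MCM6 held 4 words in 2 overlapping pairs, with the first bases of the words 152, 148, 90 and 86 bases before the start site. CDT1 and PCNA each held 1 word, 35 and 59 bases before the start site, and CDC6 held 1 word 8 bases into the transcript. Of the other replication genes described below, 29 of the 76 with a window held such a word (38.2%). A CCAAT word stood in 9 of the 11 windows, against 34.6% of all windows, and CDT1 and MCM2 were the 2 of the 8 genes without it. Of the other replication genes 40 of the 76 with a window held it (52.6%). The transcripts of genes with an E2F-type word moved in both directions in what follows. A match is a string of letters and was not tested as a binding site. Other strings that differ from the searched words by a base were not counted.

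The cells were checked first. VIM, CD44, AXL and CAV1, which mark the mesenchymal state of this line, had group means of 10.28 to 11.77 on the log2 scale of the deposited values, and ESR1, PGR and CDH1 had 2.38 to 3.77. EPCAM, an epithelial marker, had 3.93 to 4.70, and ERBB2, the HER2 gene, had 5.76 to 5.98. Defining genes of blood (PTPRC, CD3E), endothelium (CDH5, VWF) and fibroblasts (DCN, LUM) had group means of 2.14 to 3.53, and COL1A1 had 5.21 to 5.90. HBB, the red cell globin, had 3.62 to 4.02. PECAM1, a further endothelial gene, had 3.57 in TTR cells with TRAIL, against 3.85 without, and 3.74 in parental cells with TRAIL, against 4.72 without. Early TRAIL-response genes rose in both lines, EGR1 by 4.90 in TTR and 5.28 in parental cells, FOS by 4.53 in TTR and 6.17 in parental cells, NFKBIA by 2.62 in TTR and 3.11 in parental cells, and TNFAIP3 by 3.73 in TTR and 3.00 in parental cells. For EGR1 the difference between the lines was −0.38 (adjusted p = 0.0847, or 0.0441 once replicate numbers were blocked). The 3 arrays of parental cells with TRAIL stood apart from the other 9. Their correlations with other groups were 0.921 to 0.963 over features, which are not independent, and those among the other groups were 0.984 to 0.992. Their medians were 4.58 to 4.61, against 4.24 to 4.31 in untreated arrays. The array median was higher with TRAIL by 0.29 in parental and by 0.11 in TTR cells, and the cause was not tested. Values after each array was centred on its median, or after quantile normalization across arrays, are therefore given where they alter a result.

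The first comparison asked how TRAIL changed these transcripts in parental cells. MCM6, CDC6 and MCM3 fell most, by 3.36-fold, 2.48-fold and 1.95-fold, while PCNA and CDT1 rose. The ring subunits did not move alike. All 10 genes had 3 arrays with TRAIL that did not overlap the 3 without, as had 62.2% of all genes. By limma's moderated test with Benjamini-Hochberg adjustment over all genes, 6 fell, 2 rose and 2 did not pass. Of all genes 29.9% fell, 28.9% rose and 58.8% changed either way.

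**Figure D1:**
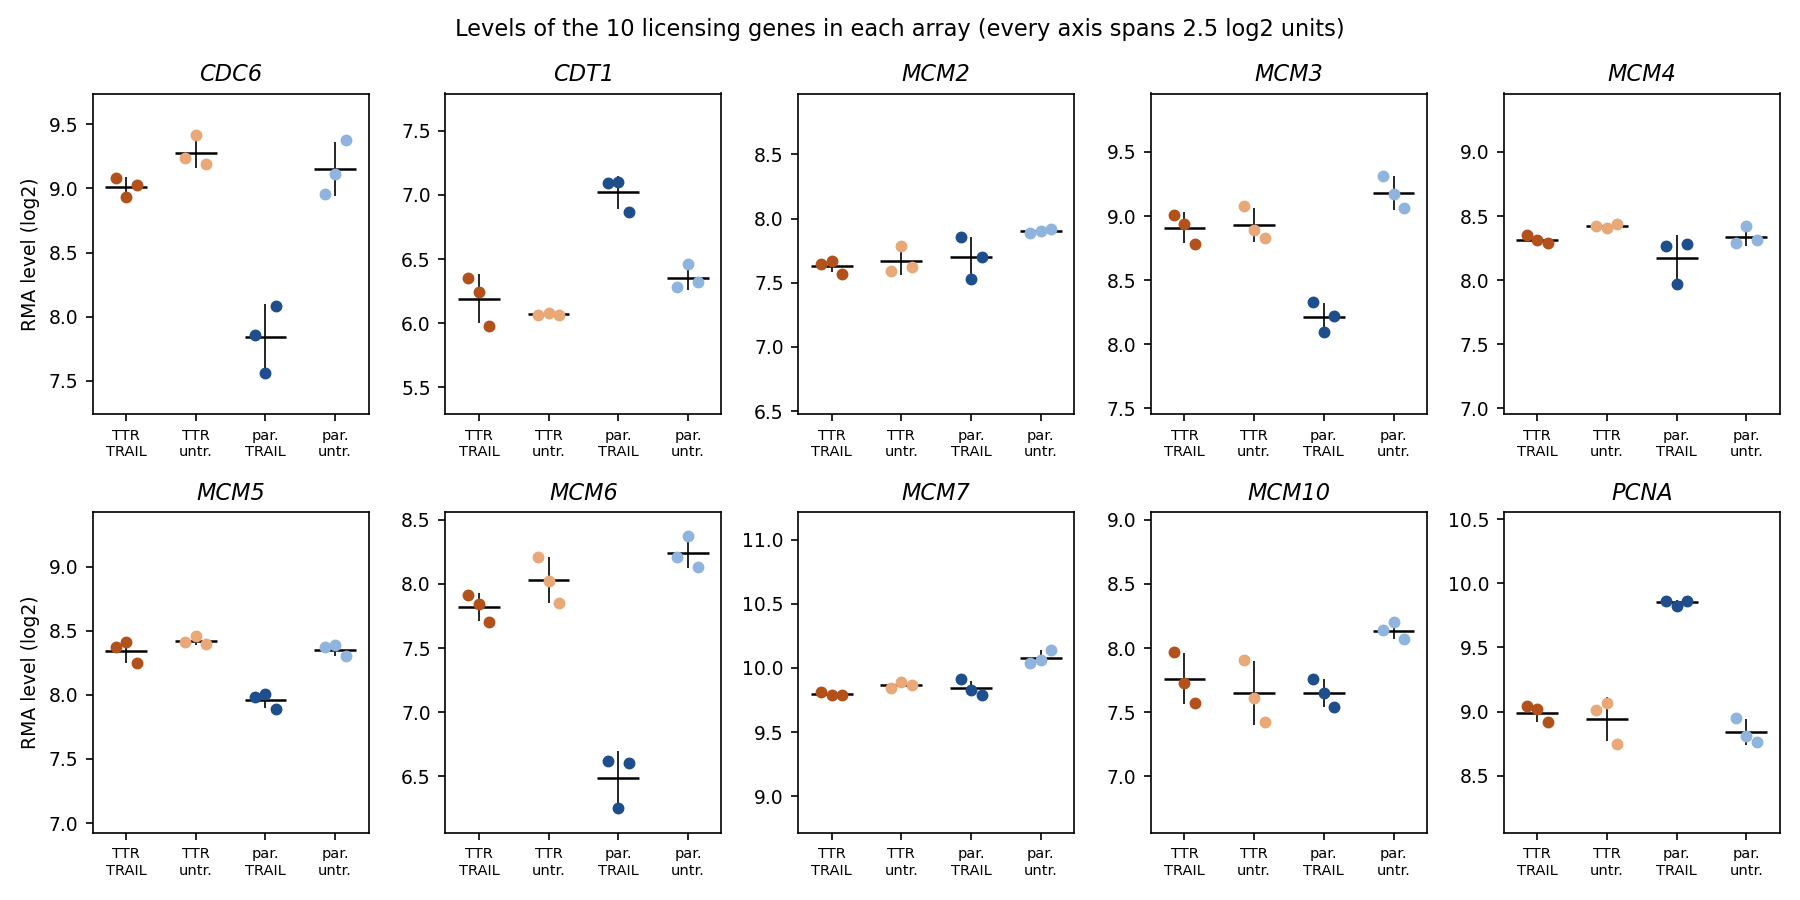
Level of each licensing gene in every array, as the deposited log2 value, for TTR cells with and without TRAIL and parental cells with and without TRAIL (1 point per array, horizontal line the mean, vertical line the SD, n = 3, axes of equal span). The 3 parental TRAIL arrays lie below the other 9 for CDC6, MCM3, MCM4, MCM5 and MCM6 and above them for CDT1 and PCNA.

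Among the ring subunits, MCM6 changed most. Its level was 6.62, 6.25 and 6.60 in parental cells with TRAIL, against 8.21, 8.37 and 8.13 without. The change was −1.75 ± 0.12 on the log2 scale (SE from limma, n = 3 arrays per group, adjusted p = 4.06e-09). All 3 treated arrays stood more than a log2 unit below every other array of the study. MCM3 had 8.33, 8.10 and 8.22 in parental cells with TRAIL, against 9.31, 9.17 and 9.06 without, a change of −0.97 ± 0.11 (adjusted p = 8.18e-07). MCM5 had 7.98, 8.01 and 7.89 with TRAIL, against 8.37, 8.39 and 8.30 without (−0.39 ± 0.09, adjusted p = 0.0011). For both genes each treated array lay below each untreated one. MCM7 changed less, with 9.91, 9.83 and 9.79 with TRAIL, against 10.04, 10.06 and 10.14 without (−0.23 ± 0.08, adjusted p = 0.0254). MCM2 and MCM4 did not pass, and their values with and without TRAIL came closer together than those of MCM6. MCM2 had 7.86, 7.53 and 7.70 with TRAIL, against 7.89, 7.90 and 7.92 without, a difference of −0.20 with a 95% confidence interval of −0.42 to 0.01. MCM4 had 8.27, 7.97 and 8.28 with TRAIL, against 8.29, 8.42 and 8.31 without, a difference of −0.17 with an interval of −0.38 to 0.04.

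A level taken relative to the rest of the ring in the same array is free of a shift equal for all its genes. A shift that varies with level is not removed, and only the change between groups is read. MCM6 minus the mean of MCM2, MCM4, MCM5 and MCM7 was −1.88, −2.09 and −1.81 in parental cells with TRAIL, against −0.43, −0.32 and −0.54 without. MCM3 relative to the same 4 subunits was −0.18, −0.24 and −0.20 with TRAIL, against 0.67, 0.48 and 0.39 without. With TRAIL in parental cells MCM6 and MCM3 thus fell relative to the mean of these 4 subunits. In TTR cells the MCM6 values were −0.63, −0.71 and −0.78 with TRAIL, against −0.36, −0.61 and −0.73 without, and these groups overlapped. The MCM3 values there were 0.46, 0.39 and 0.30 with TRAIL, against 0.51, 0.26 and 0.24 without. These 2 subunits were singled out after their values were seen, so no test is given for the ratios.

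The loaders of the ring moved in opposite directions. CDC6, the ATPase that joins the origin recognition complex, had 7.86, 7.56 and 8.08 in parental cells with TRAIL, against 8.96, 9.11 and 9.38 without. It fell by 1.31 ± 0.13 on the log2 scale (adjusted p = 2.89e-07). CDT1, which brings the ring to the origin, had 7.09, 7.10 and 6.87 with TRAIL, against 6.28, 6.46 and 6.32 without. It rose by 0.67 ± 0.11, or 1.59-fold (adjusted p = 5.02e-05). No treated array of either gene reached the range of the untreated ones. MCM10, which acts once the ring is loaded, had 7.76, 7.65 and 7.54 with TRAIL, against 8.14, 8.20 and 8.07 without (−0.49 ± 0.13, adjusted p = 0.00372). PCNA had 9.86, 9.82 and 9.86 with TRAIL, against 8.95, 8.81 and 8.76 without. This rise of 1.01 ± 0.10 (2.01-fold, adjusted p = 2.17e-07) was the largest increase among the 10.

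The falls are to be read beside those of other abundant transcripts. When genes were split in 4 classes of equal size by their mean over all 12 arrays, 9 of the 10 lay in the highest class and CDT1 in the next. TRAIL lowered 66.4% of the 4605 genes of the highest class in parental cells and raised 16.2%, and their median change was −0.66. Of the 9 licensing genes there, 6 fell and 1, PCNA, rose. The share that fell was thus near that of other genes of such levels, and the part that level had in it was not tested. In the class of CDT1 40.2% fell and 33.4% rose. The median change of the 10 was −0.31, against 0.05 over all genes.

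**Figure D2:**
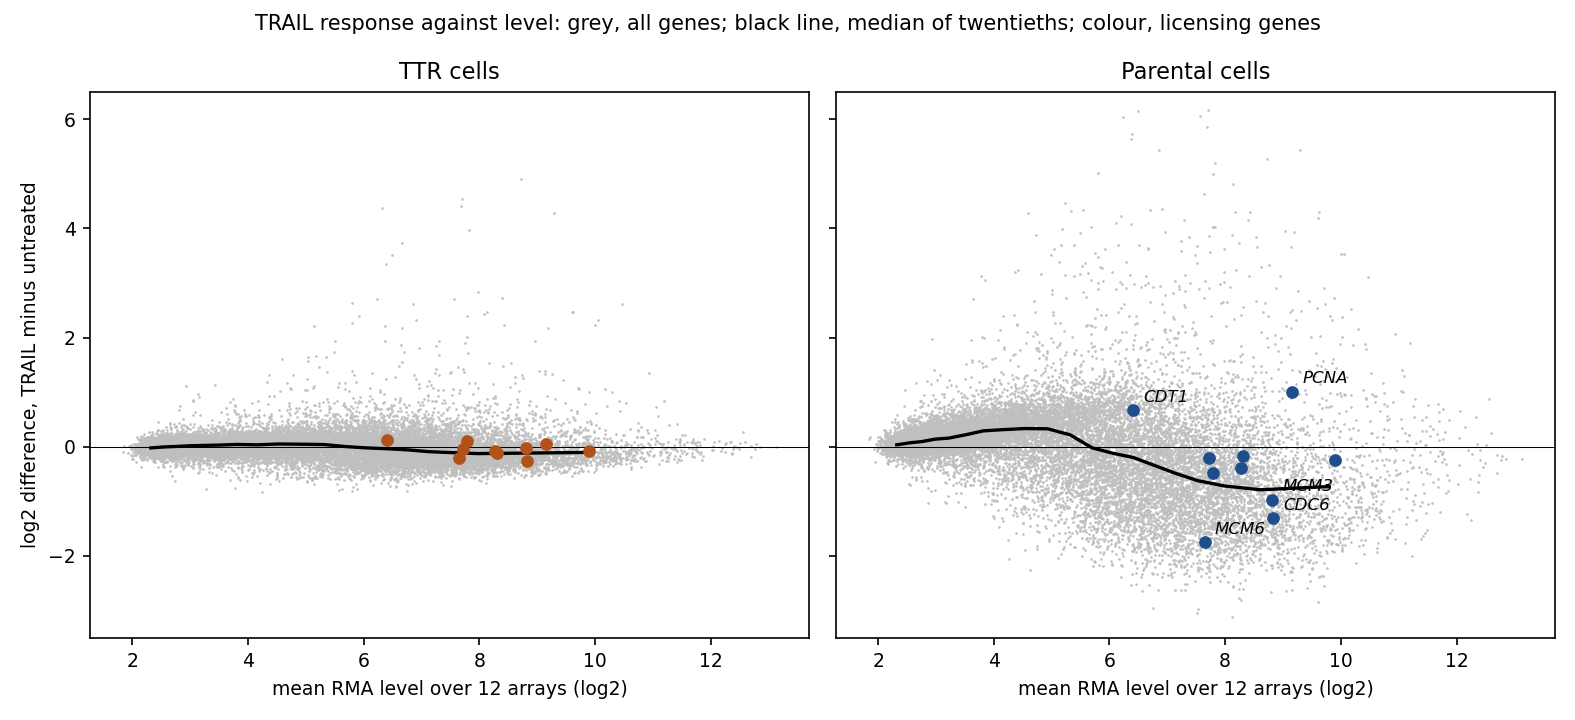
Change with TRAIL (log2, TRAIL minus untreated) against the mean level over 12 arrays in TTR and parental cells, with all 18417 genes in grey, the median of each twentieth of the genes by level as a black line and the licensing genes in colour. In parental cells MCM6, CDC6 and MCM3 lie below the line of genes of similar level, and the other 7 lie above it.

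CDC6, MCM3 and MCM6 fell and CDT1 and PCNA rose under every scaling tried. After median centring CDC6 changed by −1.60, MCM3 by −1.26, MCM6 by −2.04, CDT1 by 0.38 and PCNA by 0.72, and MCM2 (−0.49) and MCM4 (−0.46) also passed. After quantile normalization CDC6 changed by −1.06, MCM3 by −0.71, MCM6 by −1.59, CDT1 by 0.83 and PCNA by 1.16. MCM5 (−0.12, adjusted p = 0.281), MCM7 (−0.10, adjusted p = 0.329) and MCM10 (−0.22, adjusted p = 0.157) then missed the threshold, and MCM2 (0.07) and MCM4 (0.10) turned positive. MCM7 also missed it without parental untreated replicate 3 (adjusted p = 0.0882) or parental TRAIL replicate 3 (adjusted p = 0.069), and MCM2 passed without parental TRAIL replicate 1 (−0.28, adjusted p = 0.0271).

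**Figure D3:**
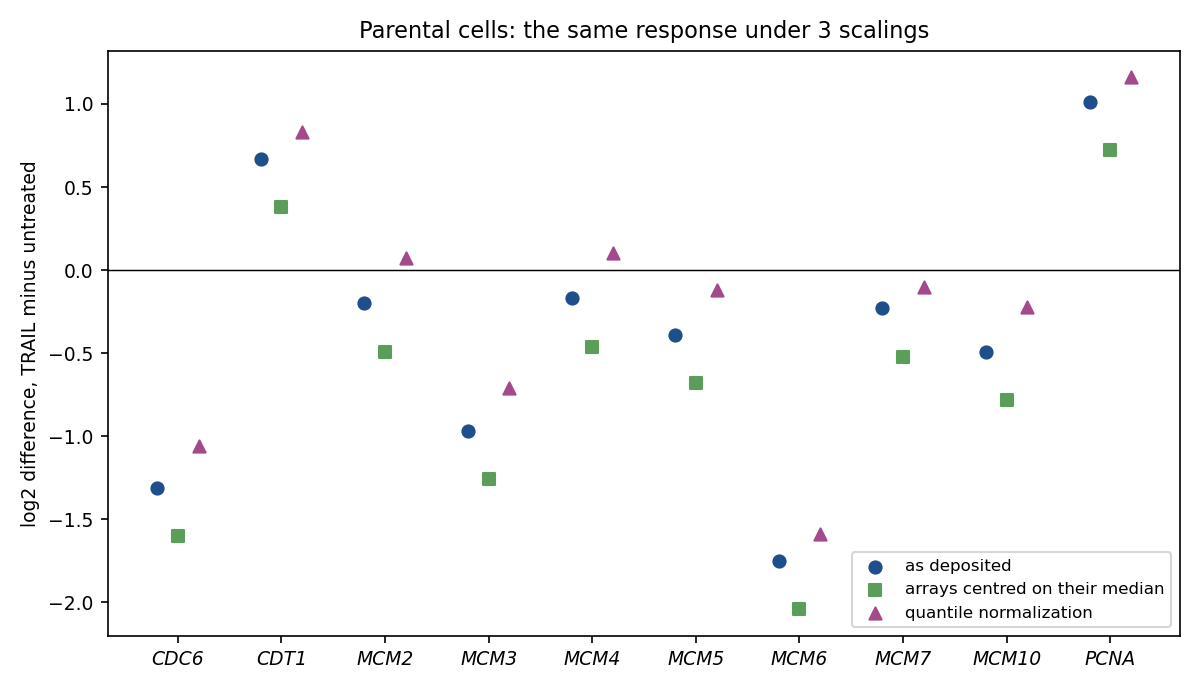
Change of each licensing gene with TRAIL in parental cells (log2, TRAIL minus untreated) as deposited, with each array centred on its median, and after quantile normalization. CDC6, MCM3 and MCM6 stay below 0 and CDT1 and PCNA above 0 in all 3, while MCM2 and MCM4 change sign.

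The second comparison was the same treatment in TTR cells. None of the 10 licensing genes passed the test by limma (0 called, and 0 at an unadjusted p under 0.05), where 5.82% of all genes did (3.27% higher, 2.55% lower) and 20.6% had an unadjusted p under 0.05. CDC6 had 9.08, 8.93 and 9.03 in TTR cells with TRAIL, against 9.24, 9.42 and 9.19 without, a difference of −0.27 with a 95% interval of −0.55 to 0.01 (adjusted p = 0.272). MCM6 had 7.91, 7.84 and 7.70 with TRAIL, against 8.21, 8.02 and 7.85 without, a difference of −0.21 with an interval of −0.47 to 0.05. The CDC6 groups did not overlap and those of MCM6 did. PCNA had 9.04, 9.02 and 8.92 with TRAIL, against 9.01, 9.07 and 8.75 without, a difference of 0.05 with an interval of −0.16 to 0.26. CDT1 had 6.35, 6.24 and 5.98 with TRAIL, against 6.06, 6.08 and 6.06 without, a difference of 0.12 with an interval of −0.11 to 0.35. Treated and untreated arrays overlapped for both.

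For the other ring subunits and MCM10 in TTR cells the differences were small beside their intervals. MCM3 differed by −0.02 (interval −0.25 to 0.20), MCM2 by −0.04 (−0.25 to 0.18) and MCM5 by −0.08 (−0.27 to 0.10). MCM10 differed by 0.11 (−0.16 to 0.38). MCM4 had 8.35, 8.31 and 8.29 with TRAIL, against 8.42, 8.41 and 8.44 without, and MCM7 had 9.81, 9.79 and 9.79, against 9.84, 9.89 and 9.87. Those 2 and CDC6 were the 3 genes whose arrays did not overlap, a separation seen in 27.5% of all genes. Their differences were −0.11 (−0.32 to 0.10) for MCM4 and −0.07 (−0.25 to 0.11) for MCM7. When the replicate number entered the fit of all 12 arrays as a block, 1567 genes were called in place of 1072, and in a fit of the TTR arrays alone 2670 with the block and 1312 without it. None of the 10 licensing genes passed in any of these 3 fits. With array weights estimated by limma from these same values CDC6 passed (−0.34, adjusted p = 0.0409).

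**Figure D4:**
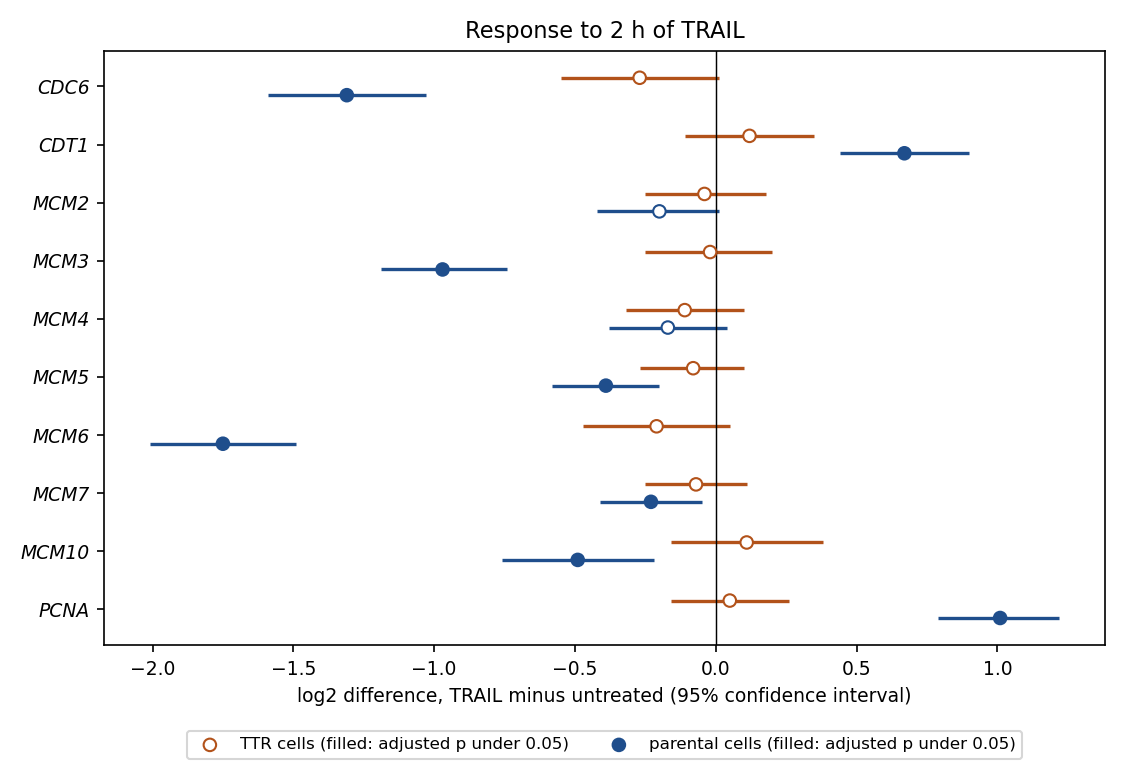
Change of each licensing gene with TRAIL (log2, TRAIL minus untreated) in TTR cells and in parental cells, with 95% confidence intervals from the limma fit and filled points for an adjusted p under 0.05. In parental cells 8 of the 10 points are filled and in TTR cells 0, where each interval crosses 0.

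Whether the response itself differed between the lines was tested by subtracting the parental change from the TTR change. The response differed for 6 of the 10 genes, 4 with a positive and 2 with a negative difference, against 37.2% of all genes (22.9% positive, 14.3% negative). In the highest level class, which holds all of the 10 but CDT1, the difference was positive for 58.1% of genes and negative for 9.42%. The difference was 1.53 ± 0.17 for MCM6 (adjusted p = 5.37e-06), 1.04 ± 0.19 for CDC6 (adjusted p = 3.56e-04) and 0.94 ± 0.15 for MCM3 (adjusted p = 1.29e-04). These 3 genes fell in parental cells and had smaller, unpassed differences in TTR cells. For PCNA it was −0.96 ± 0.14 (adjusted p = 5.72e-05) and for CDT1 −0.55 ± 0.15 (adjusted p = 0.00948), and both had risen in parental cells. MCM10 differed by 0.60 ± 0.18 (adjusted p = 0.0161). The other 4 did not pass, at 0.31 for MCM5 (interval 0.04 to 0.57), 0.17 for MCM2 (−0.13 to 0.47), 0.16 for MCM7 (−0.09 to 0.42) and 0.06 for MCM4 (−0.23 to 0.36). After centring, CDT1 missed the threshold (−0.37, adjusted p = 0.0751), while MCM5 (0.49, adjusted p = 0.00559) and MCM7 (0.35, adjusted p = 0.0361) passed. MCM10 missed it after quantile normalization (0.34, adjusted p = 0.158) and without TTR TRAIL replicate 1 (0.49, adjusted p = 0.0504).

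Without TRAIL, the lines differed in 1 licensing gene. MCM10 had 7.91, 7.61 and 7.42 in TTR cells, against 8.14, 8.20 and 8.07 in parental cells, and differed by −0.49 ± 0.13 (adjusted p = 0.0297), while 7.11% of all genes differed, 3.64% higher and 3.47% lower. Every TTR array lay below every parental one, but the TTR arrays were spread over a wider range. The call was lost without parental untreated replicate 1, 2 or 3 (adjusted p = 0.092, 0.107 and 0.0566) and without TTR untreated replicate 2 or 3 (adjusted p = 0.102 and 0.135). At an unadjusted p under 0.05 there were 5 genes, the other 4 being CDT1 (−0.29), MCM3 (−0.25), MCM2 (−0.24) and MCM7 (−0.21), and 18.9% of all genes lay under that p. The differences of the remaining 5 ranged from −0.21 for MCM6 to 0.13 for CDC6. Arrays of the 2 lines did not overlap for 5 of the 10 genes, as for 24.6% of all genes.

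With TRAIL, TTR cells were higher than parental cells in MCM6 (1.32 ± 0.12), CDC6 (1.18 ± 0.13), MCM3 (0.69 ± 0.11) and MCM5 (0.38 ± 0.09), and lower in PCNA (−0.85 ± 0.10) and CDT1 (−0.84 ± 0.11). The adjusted p-values of these 6 ran from 1.45e-07 for MCM6 to 0.00148 for MCM5, and 54.4% of all genes were called, 28% higher and 26.4% lower. The arrays of the lines did not overlap for 7 of the 10, as for 60.2% of all genes. MCM2 (−0.07, interval −0.28 to 0.14), MCM4 (0.14, −0.07 to 0.35), MCM7 (−0.05, −0.23 to 0.13) and MCM10 (0.11, −0.16 to 0.38) did not pass. This comparison shares arrays with the TRAIL effects above. After centring MCM4 also passed (0.34), and after quantile normalization MCM5 did not (0.14, adjusted p = 0.19) while MCM2 was lower (−0.30, adjusted p = 0.013).

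By level, the parental TRAIL group stood at one end for MCM6, CDC6, PCNA and CDT1. For MCM6 the group means were 7.82 ± 0.11 in TTR cells with TRAIL (SD, n = 3), 8.03 ± 0.18 in untreated TTR cells, 6.49 ± 0.21 in parental cells with TRAIL and 8.24 ± 0.12 in untreated parental cells. From lowest to highest, the order was parental TRAIL, TTR TRAIL, TTR untreated and parental untreated, and of the steps between neighbours the first alone passed the test. For CDC6 the means were 9.01 ± 0.08 in TTR cells with TRAIL, 9.28 ± 0.12 in untreated TTR cells, 7.84 ± 0.26 in parental cells with TRAIL and 9.15 ± 0.21 in untreated parental cells. The parental TRAIL group was lowest, and neither tested difference among the other 3 passed. For PCNA the means were 8.99 ± 0.07 in TTR cells with TRAIL, 8.94 ± 0.17 in untreated TTR cells, 9.85 ± 0.02 in parental cells with TRAIL and 8.84 ± 0.10 in untreated parental cells. For CDT1 they were 6.19 ± 0.19 in TTR cells with TRAIL, 6.07 ± 0.01 in untreated TTR cells, 7.02 ± 0.13 in parental cells with TRAIL and 6.35 ± 0.09 in untreated parental cells. In both genes the parental TRAIL group was highest, and neither tested difference among the other 3 passed.

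The profile over the 4 group means was compared between genes after each gene was centred on its own mean, with the root mean square difference as the measure of likeness. Among the 10, MCM2 and MCM7 were nearest (0.020) and MCM6 and PCNA farthest apart (1.084). CDC6 lay 0.163 from MCM6, and CDT1 lay 0.152 from PCNA. Outside the 10, the genes nearest to MCM6 were LRPPRC (0.015), LTA4H (0.019), STAMBP (0.029) and B4GALT1 (0.030). Nearest to CDC6 were MIER3 (0.008), MORC3 (0.008), ZYG11B (0.009) and NAE1 (0.014). Nearest to PCNA were DNAJB14 (0.019), FKBPL (0.020), CDK10 (0.022) and CCM2L (0.024). These were picked for their profile from 18417 genes, and the measure rests on 4 means.

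The other genes of origin licensing and replication were described from 8 lists with 90 measured genes. In parental cells with TRAIL 60 fell, 10 rose and 20 did not pass, where 29.9% of all genes fell and 28.9% rose, and the median change was −0.74 (−1.03 after centring, −0.66 after quantile normalization). In TTR cells 6 fell, 6 rose and 78 did not pass, with a median of −0.13, and after centring 23 fell and 5 rose. Of all genes 2.55% fell and 3.27% rose there. Between the lines 54 differences were positive and 7 negative, against 22.9% positive and 14.3% negative over all genes. By level, 60 of the 90 lay in the highest class, 27 in the next and 3 in the one below. In parental cells 44 of the 60 fell and 4 rose, where 66.4% of all genes of that class fell and 16.2% rose. Of the 27, 14 fell and 6 rose, where 40.2% of that class fell and 33.4% rose. The differences between the lines were positive for 40 and negative for 3 of the 60, where 58.1% and 9.42% of that class were. For each list below, the genes named are the 4 with the smallest p for TRAIL in parental cells.

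**Figure D5:**
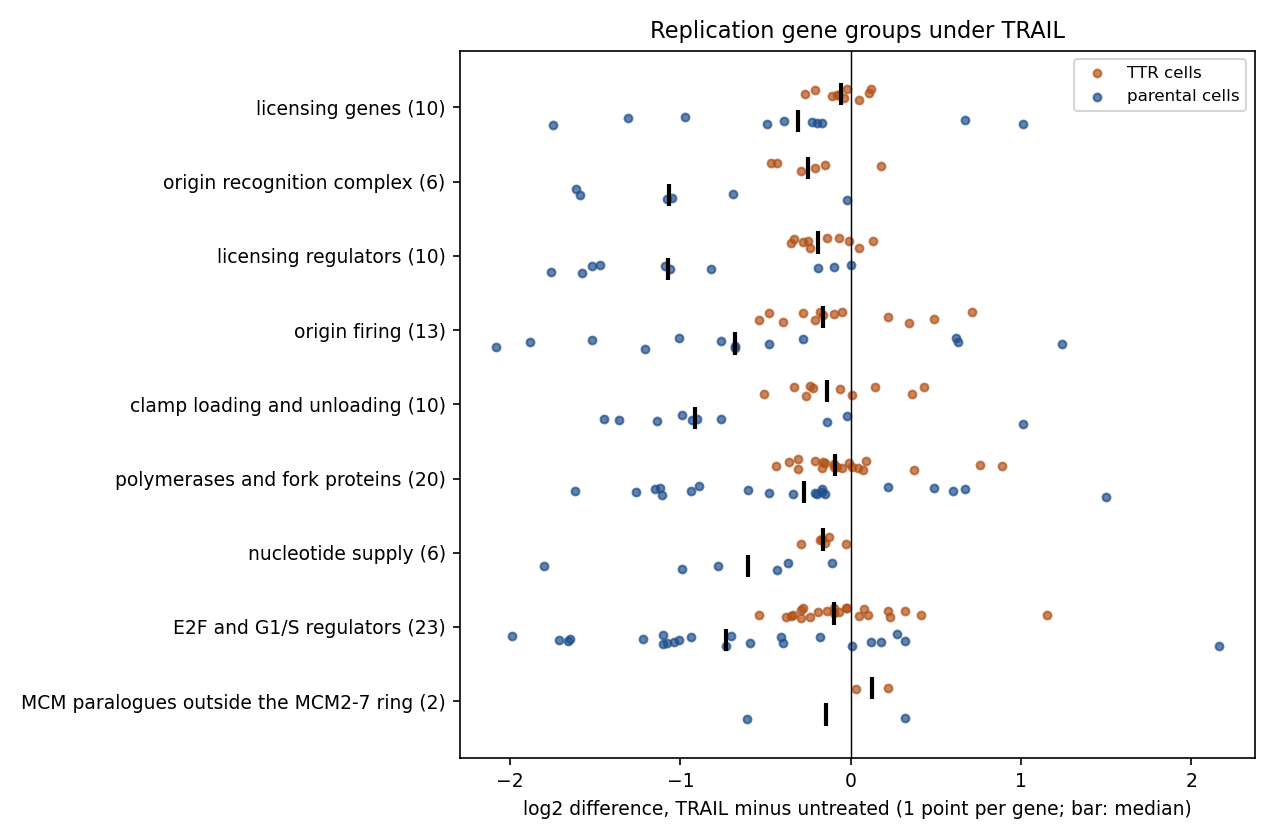
Change with TRAIL (log2, TRAIL minus untreated) of the licensing genes and of 8 lists of other replication genes in TTR and parental cells, 1 point per gene, with a bar at the median and the number of genes measured in parentheses. In parental cells the medians lie from −1.07 (licensing regulators) to −0.15 (MCM paralogues), and in TTR cells from −0.25 to 0.12.

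The origin recognition complex, which marks origins and recruits CDC6, had 5 of 6 subunits lower with TRAIL in parental cells (median −1.06). ORC4 changed by −0.43 in TTR and −1.61 log2 units in parental cells, and ORC5 by −0.47 in TTR and −1.59 in parental cells. These were the 2 subunits that passed in TTR cells, and 3 were lower there after centring or after quantile normalization. ORC2 changed by −1.05 and ORC3 by −1.08 in parental cells, and their differences in TTR cells were −0.29 and −0.21. Licensing regulators were lower in parental cells for 7 of 10 genes and in TTR cells for 0, or 1 with the replicate number as a block. That 1 was MCMBP, which binds MCM proteins. It differed by −0.33 in TTR cells (adjusted p = 0.0542, and 0.0447 with the block) and fell by 1.76 in parental cells. After centring, all 10 regulators were lower in parental cells and 4 in TTR cells, and after quantile normalization 7 and 0. Over the alternatives run, the regulators called lower in TTR cells numbered 0 to 4. DTL and DDB1, parts of the ligase that degrades CDT1 on PCNA, differed by −0.25 and −0.28 in TTR cells and changed by −1.47 and −1.52 in parental cells. SKP2, which serves another ligase acting on CDT1, differed by −0.35 in TTR cells and fell by 1.58 in parental cells.

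Among origin firing factors, which turn the licensed ring into a helicase, 9 of 13 fell and 3 rose in parental cells (median −0.68). GINS2 and GINS3 belong to the GINS complex and changed by −1.88 and −1.52 there. In TTR cells GINS2 fell by 0.54 and GINS3 differed by −0.40 (adjusted p = 0.0598, and 0.0213 with the replicate block). The block made 5 firing factors pass in TTR cells, 3 higher and 2 lower, in place of 3 (2 higher, 1 lower). After centring 2 were higher and 2 lower there. MTBP, a partner of the firing factor TICRR, changed by −1.21 in parental cells and had a difference of −0.16 in TTR cells. RECQL4, a helicase, rose by 0.49 in TTR and by 1.24 in parental cells. The clamp loading and unloading list also holds PCLAF, the gene of a PCNA-associated factor. Of its 10 genes 7 fell and 1 rose in parental cells (median −0.91), while PCNA itself rose. In TTR cells 1 fell and 1 rose, and after centring 2 fell and 0 rose. The loader subunits RFC2 and RFC4 changed by −0.93 and −1.14 in parental cells, and in TTR cells RFC4 fell by 0.51 and RFC2 differed by −0.24. CHTF8 and CHTF18 belong to one alternative loader and moved apart. CHTF8 differed by −0.26 in TTR cells and fell by 1.45 in parental cells, while CHTF18 rose by 0.36 in TTR and by 1.01 in parental cells.

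Of 20 polymerase and fork genes, 10 fell and 4 rose in parental cells (median −0.28). After centring 15 fell and 2 rose there, and after quantile normalization 8 fell and 4 rose. In TTR cells 1 fell and 2 rose, and after centring 4 fell and 2 rose. PRIM1 and PRIM2, the primase subunits, changed by −1.62 and −1.12 in parental cells, and in TTR cells PRIM2 fell by 0.44 while PRIM1 differed by −0.15. The catalytic subunit POLE of polymerase epsilon rose by 0.76 in TTR and by 1.50 in parental cells. Its partner POLE2 differed by −0.31 in TTR cells and fell by 1.11 in parental cells. The nucleotide supply list also holds the histone mRNA-binding protein gene SLBP, and of its 6 genes 5 fell in parental cells and 0 in TTR cells. After centring 6 fell in parental and 1 in TTR cells, and after quantile normalization 3 and 0. RRM1, the large subunit of ribonucleotide reductase, changed by −1.80, thymidylate synthase TYMS by −0.99, DUT by −0.78 and SLBP by −0.43 in parental cells. Their differences in TTR cells were −0.13, −0.03, −0.15 and −0.29. Of the paralogues outside the ring, MCM8 fell by 0.61 in parental cells and MCM9 had a difference of 0.32 that did not pass (adjusted p = 0.064), but did with the replicate block (adjusted p = 0.0215). MCM9 has more than 1 feature, and with the mean of its features it was −0.55 (adjusted p = 1.11e-04).

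E2F and G1/S regulators were lower in parental cells for 16 of 23 genes and higher for 2 (median −0.73). In TTR cells 1 was higher and 1 lower, with the replicate block 2 and 2, and after centring 1 and 7. RB1, the retinoblastoma protein gene that restrains E2F, differed by −0.34 in TTR cells and fell by 1.99 in parental cells. TFDP1, the DNA-binding partner of E2F proteins, differed by −0.24 in TTR cells and fell by 1.66 in parental cells. CDK4, the kinase that acts on RB1 in G1, fell by 0.38 in TTR and by 1.65 in parental cells. CDKN1A, the p21 inhibitor that binds both cyclin-dependent kinases and PCNA, rose by 1.15 in TTR and by 2.16 in parental cells. Activators and inhibitors of the G1/S step were thus both among the genes that fell.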

How the data were processed

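Levels of RNA were measured in 12 samples, 4 groups of 3, taken from the sample labels. Trizol was used to extract total RNA, from which biotinylated cRNA was prepared, per the labels' protocols. The authors deposited log2 values made with RMA in Affymetrix Power Tools, per the submitters' processing notes. For tool versions and genome build, nothing is given in the sources used here. RMA removes differences in total signal, so each value is relative to its array. No detection call was used.

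Of 33252 features, 19460 named 1 gene by the platform annotation, 1754 named several and 12038 were unnamed. Gene identifiers of 19429 matched RefSeq (GRCh38.p14), and 0 symbols changed. For 769 genes with several features the one with the highest mean was kept, leaving 18417 genes with no filter on low values. No arrays were identical (0 pairs).

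All arrays were fitted with limma 3.58.1 in R 4.3.3 (1 mean per group, 8 residual and 7.87 prior degrees of freedom), which was tested on simulated data. Tests were two-sided, adjusted by Benjamini-Hochberg, and called at an adjusted p under 0.05. A permutation test of 3 against 3 cannot go below 0.1 and was not used. The members, the lists and the tests were chosen with earlier results of these data known. Genes named were the 10 members, 4 treatment-response genes, markers of cell identity, the 4 genes of each list with the smallest p for TRAIL in parental cells, and the 4 nearest profiles to MCM6, CDC6 and PCNA. The 3 microRNA genes were chosen after the data were seen.

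The labels share replicate numbers across groups, and same-numbered arrays share an unexplained code there, from which the numbers were taken as pairs. The main fit left these pairs out. Deviations of same-numbered arrays correlated at 0.32, 0.15 and 0.40 between the TTR groups, 0.11, 0.06 and 0.06 between the parental groups, 0.09, −0.03 and 0.37 between untreated lines and 0.10, −0.01 and 0.14 between lines with TRAIL. Alternatives were median centring, quantile normalization, the mean of a gene's features, a filter on the dimmest genes, a trended prior, array weights, fits of 2 groups, the replicate block and leaving out arrays. Promoter words were searched with Python 3.11.15, and figures were drawn with matplotlib 3.10.9.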

Additional observations from a re-analysis of the deposited data

Results flagged for a closer look

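The TRAIL effect differed between the lines, by the test of the difference in limma (TTR minus parental, log2), for 6 licensing genes: MCM6 (1.53), CDC6 (1.04), MCM3 (0.94), MCM10 (0.60), PCNA (−0.96) and CDT1 (−0.55). The arrays of parental cells with TRAIL, which stand apart from the other 9, enter each of these values, and their part in them was not tested. CDT1 missed the threshold after centring and MCM10 after quantile normalization or without TTR TRAIL replicate 1, as reported above. MCM5 and MCM7 passed after centring.

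The other replication genes named were picked by their p for TRAIL in parental cells, and that change enters the difference. Their values are therefore no separate support. Over all genes the difference was called positive for 22.9% and negative for 14.3%. Of the genes so picked, the difference was positive for the origin recognition complex, with 1.18 for ORC4, 1.12 for ORC5, 0.87 for ORC3 and 0.76 for ORC2. It was 1.43 for MCMBP, 1.25 for DDB1, 1.23 for SKP2 and 1.22 for DTL among licensing regulators. Among firing factors it was 1.33 for GINS2, 1.12 for GINS3, 1.05 for MTBP and −0.75 for RECQL4. Among clamp loaders it was 1.19 for CHTF8, 0.68 for RFC2, 0.63 for RFC4 and −0.65 for CHTF18. Polymerase genes had 1.47 for PRIM1, 0.81 for POLE2, 0.67 for PRIM2 and −0.73 for POLE. Nucleotide supply genes had 1.67 for RRM1, 0.96 for TYMS and 0.63 for DUT. G1/S regulators had 1.65 for RB1, 1.42 for TFDP1, 1.28 for CDK4 and −1.01 for CDKN1A, and MCM8 had 0.64. Of the early TRAIL-response genes, FOS had −1.64, NFKBIA −0.49 and TNFAIP3 0.73 (adjusted p = 0.0488). The hairpin features inside MCM7 had −1.06 for MIR106B, −0.88 for MIR93 and −0.75 for MIR25.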

How the results depend on the processing

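Over all alternatives run, no call of a licensing gene reversed, and 19 values that passed in neither setting changed sign. Quantile normalization left 5 of the 8 parental calls (2 higher, 3 lower), and array weights added 1 in TTR cells. Leaving out 1 array gave 7 to 9 calls for TRAIL in parental cells, 0 in TTR cells, 0 to 1 between untreated lines, 6 with TRAIL and 5 to 6 for the difference. Over all genes, TRAIL in TTR cells called 1072, but 2391 after centring, 3199 with array weights, 2670 with the replicate block in a fit of 2 groups (1312 without it, 1567 with it on all 12 arrays) and 1709 with the parental TRAIL arrays left out, an alternative chosen after seeing the data. Leaving out 1 array gave 379 to 1487. Untreated lines differed in 1310 genes, 2386 with array weights and 782 to 1553 without 1 array. TRAIL in parental cells called 9805 to 10917 without 1 array (10827 with all), the lines with TRAIL 8772 to 10152 (10017) and the difference 6008 to 6912 (6852). Higher genes made up 49.1% of parental TRAIL calls as deposited, 21.3% after centring and 37.9% after quantile normalization. Those shares were 56.2%, 18.7% and 47.0% in TTR cells, 51.6%, 74.1% and 58.8% between lines with TRAIL and 61.6%, 80.9% and 63.1% for the difference. With the mean of its features MCM9 reversed, to −0.55 in parental cells with TRAIL, 0.44 between lines with TRAIL and 0.53 for the difference, since its features differ. The cause of the other changes was not tested. Among other named genes 71 values lost and 63 gained a call over the alternatives. Of the counts over the 8 lists 723 stayed close to the reported count and 117 moved further, and the origin recognition subunits called lower in TTR cells numbered 0 to 3 in place of 2. The replicate block on all 12 arrays changed no call of a licensing gene, and among the other genes reported it changed only those of EGR1, GINS3, MCM9 and MCMBP given above. In a fit of 2 groups MCM7 missed the threshold for TRAIL in parental cells without the block (adjusted p = 0.0759) and with it (adjusted p = 0.102).

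Limits are the 3 arrays per group, values relative to each array, no detection call, and the parental TRAIL arrays, whose distribution differs from the rest.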

Other observations

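The microRNA genes MIR106B, MIR93 and MIR25 lie inside MCM7 in the RefSeq table, on the same strand, and the array has a feature for each. They were looked up after the data were seen. Such a feature measures RNA of the hairpin locus and not the mature microRNA. In the parental cells given TRAIL all 3 features rose, as did 28.9% of all genes, while the MCM7 feature changed by −0.23. MIR106B ranged from 4.76 to 5.68 in parental cells with TRAIL, against 4.06 to 4.27 without (1.19 ± 0.20, adjusted p = 9.68e-05). MIR93 ranged from 4.62 to 5.13 with TRAIL, against 3.61 to 4.27 without (1.04 ± 0.15, adjusted p = 2.15e-05). MIR25 ranged from 6.25 to 6.61 with TRAIL, against 5.55 to 5.73 without (0.82 ± 0.12, adjusted p = 1.27e-05). Treated and untreated arrays did not overlap for any of the 3, as for 62.2% of all genes. After centring the changes were 0.90, 0.75 and 0.53, and after quantile normalization 0.99, 0.78 and 0.85. In TTR cells the differences were 0.13 for MIR106B, 0.16 for MIR93 and 0.07 for MIR25. None of these 3 passed, where 5.82% of all genes did. MIR106B and MIR93 belong to the class of genes with a mean of 3.36 to 5.11, where 49.9% of genes rose with TRAIL in parental cells and 10.8% fell. MIR25 belongs to the class of 5.11 to 6.94, where 33.4% rose and 40.2% fell. The main mature products are shown from RefSeq with the seed, bases 2 to 8, in capitals, which miR-106b-5p and miR-93-5p share.
hsa-miR-106b-5p: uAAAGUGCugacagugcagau
hsa-miR-93-5p: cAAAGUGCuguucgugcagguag
hsa-miR-25-3p: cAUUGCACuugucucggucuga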
